A study of Mus musculus with 24 samples.

Results

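The retinoic acid pathway was followed through 9 genes that take up retinol, turn it into retinoic acid, carry, sense and degrade it. They were the rows of the gene count table with the symbols Stra6, Rdh10, Dhrs3, Aldh1a2, Aldh1a3, Crabp2, Cyp26b1, Rarb and Rarg, 9 of 49280 features, and all 9 passed the filter on low counts in every comparison. The libraries came from mouse lung organoids, epithelial structures grown in gel from lung epithelial cells of wild-type mice together with CCL206, a mouse lung fibroblast line. During the first 14 days, cultures were given vehicle or cigarette smoke extract (CSE) at 5%, and they were then dissociated and started again with fresh CCL206 cells. They next received vehicle or 100 nM tanimilast with 100 nM formoterol and were harvested on day 28. Tanimilast inhibits phosphodiesterase 4, an enzyme that breaks down cyclic AMP, and formoterol is a bronchodilator that activates the beta-2 adrenoceptor. The groups are written Veh (vehicle throughout), CSE (smoke extract, then vehicle), TF (vehicle, then drugs) and CSETF (smoke extract, then drugs). They follow Epi for cells with the surface protein Epcam and Fib for cells without it, with 3 mice in each of the 8 groups. How the fractions were separated is not stated. The CCL206 cells of the second culture were added after the smoke extract had ended, and replicates of the Fib groups were cultures of that line with cells of different mice.

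Retinol enters cells through transporters such as Stra6 and is oxidised to retinaldehyde by Rdh10, while Dhrs3 reduces retinaldehyde back to retinol. Aldh1a2 and Aldh1a3 oxidise retinaldehyde to retinoic acid, which Crabp2 hands to nuclear receptors such as Rarb and Rarg, and Cyp26b1 breaks it down. In the lung, retinoic acid is known for its part in early lung budding and in the formation of alveoli.

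Several members are textbook targets of retinoic acid themselves, and Rarb is the classic example, so its start region is shown with those of Stra6 and Cyp26b1, which had the largest called falls after CSE in the fibroblast fraction. The windows are RefSeq's, build GRCm38.p6, from 250 bases before to 50 bases after the start of transcription, written 5′ to 3′ on the strand of the gene. Rarb lies at chr14:16575427-16575726 on the minus strand, the first Stra6 window at chr9:58128838-58129137 on the plus strand, and Cyp26b1 at chr6:84593761-84594060 on the minus strand. Capitals mark a direct repeat of 6-base receptor units spaced by 5 bases.
Rarb: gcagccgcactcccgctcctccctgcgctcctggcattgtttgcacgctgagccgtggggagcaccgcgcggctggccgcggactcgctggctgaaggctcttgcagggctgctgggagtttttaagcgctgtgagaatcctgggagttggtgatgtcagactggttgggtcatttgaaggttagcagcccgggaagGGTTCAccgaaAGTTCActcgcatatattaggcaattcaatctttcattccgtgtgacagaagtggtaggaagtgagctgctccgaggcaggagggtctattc
Stra6: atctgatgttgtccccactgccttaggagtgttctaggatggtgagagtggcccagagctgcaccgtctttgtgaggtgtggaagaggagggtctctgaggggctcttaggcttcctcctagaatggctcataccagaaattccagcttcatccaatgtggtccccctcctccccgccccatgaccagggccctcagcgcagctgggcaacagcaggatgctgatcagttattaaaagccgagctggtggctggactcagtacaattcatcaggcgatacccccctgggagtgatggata
Cyp26b1: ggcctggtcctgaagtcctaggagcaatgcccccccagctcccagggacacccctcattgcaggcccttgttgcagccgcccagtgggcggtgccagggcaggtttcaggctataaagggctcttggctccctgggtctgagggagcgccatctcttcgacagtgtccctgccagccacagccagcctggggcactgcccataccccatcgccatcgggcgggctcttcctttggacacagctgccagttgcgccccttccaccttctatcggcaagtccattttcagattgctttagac
The units searched, on both strands, were the common form AGGTCA and the related forms AGTTCA together with GGGTCA as well as GGTTCA, and a repeat holds 2 of them in the same direction. The Rarb repeat ran from base -53 to base -37 relative to the start. Such a repeat was found in 32 of 32851 RefSeq windows (0.0974%), and a unit on its own in 43.7%. Windows were listed for 6 members, and among them the repeat occurred in Rarb and in no window of Stra6 (4), Cyp26b1 (1), Rarg (2), Aldh1a2 (1) or Dhrs3 (3). A match describes the letters of a window and shows no binding.

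The 24 libraries held 31832267 to 47534709 counts each. Levels are CPM, counts scaled to a common library size with TMM factors (trimmed mean of M values), and 1 CPM stood for 33.2 to 47.6 counts. Epcam parted the fractions, with 797 to 1763 CPM in Epi and 259 to 669 CPM in Fib, so the Fib libraries kept epithelial RNA. The 17 epithelial identity genes summed to 9882 to 14860 CPM in Epi and 3656 to 7548 CPM in Fib. The 10 fibroblast identity genes summed to 121 to 825 CPM in Epi and 1129 to 5307 CPM in Fib. Among markers of other cells, the 6 endothelial genes summed to at most 2.71 CPM, and the leukocyte gene Ptprc reached at most 0.248 CPM. Of the same leukocyte list, Cd68 had 23.0 to 76.4 CPM, and Itgam and Csf1r reached at most 3.55 and 2.17 CPM. The mesothelial genes Upk3b and Lrrn4 reached at most 0.35 and 0.61 CPM, although Msln and Krt19 of the same list were high. In such bulk libraries, fewer cells of a type and less RNA per cell cannot be told apart.

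The 9 genes differed widely in level. Per kilobase of exon, Rdh10 was highest in both fractions, at 54.9 CPM per kilobase (SD 11.8, n = 12) in Epi and 29.0 (SD 7.44, n = 12) in Fib. Aldh1a3 followed in Epi at 29.2 CPM per kilobase (SD 12.1, n = 12), close to Dhrs3 at 28.0 (SD 3.95, n = 12), and stood at 8.05 (SD 4.47, n = 12) in Fib. Of the receptors, Rarg had more than Rarb, with 20.2 (SD 1.47, n = 12) against 9.23 CPM per kilobase (SD 0.451, n = 12) in Epi and 26.7 (SD 2.73, n = 12) against 6.32 (SD 0.703, n = 12) in Fib. Crabp2, Cyp26b1 and Stra6 lay between 1.38 and 5.31 CPM per kilobase in either fraction. Aldh1a2 was the lowest, at 0.244 (SD 0.0867, n = 12) in Epi and 0.0903 CPM per kilobase (SD 0.0543, n = 12) in Fib, and rested on 3 to 29 counts a library. Both fractions thus held RNA of every step, with Aldh1a3 far above Aldh1a2 among the enzymes that make retinoic acid.

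**Figure D1:**
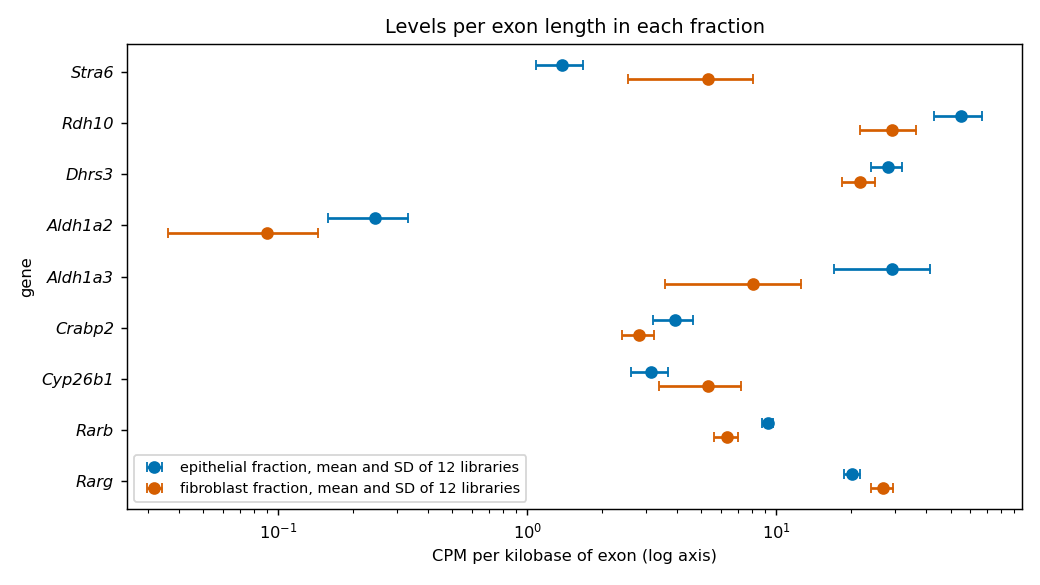
Mean level of each gene in CPM per kilobase of exon (log axis) in the epithelial (blue) and fibroblast (orange) fraction, with bars for the SD over 12 libraries. Rdh10 is the highest in both (54.9 and 29.0) and Aldh1a2 the lowest (0.244 and 0.0903).

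Between the fractions, Rdh10, Aldh1a2 and Aldh1a3, which make retinaldehyde and retinoic acid, were higher in the epithelial fraction, as were Dhrs3, Crabp2 and Rarb, and the transporter Stra6, the degrading enzyme Cyp26b1 and the receptor Rarg were higher in the fibroblast fraction. All 9 members were called at an adjusted p under 0.05 (edgeR quasi-likelihood test, Benjamini-Hochberg adjustment over all genes), 6 higher and 3 lower in Epi. Of all genes tested, 68.9% were called in this comparison, 34.7% higher and 34.2% lower in Epi, so a call here sets a gene little apart. The median log2 fold change of the members was 0.46, beside 0.03 over all genes tested.

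Stra6, the retinol transporter, ranged from 6.41 to 11.3 CPM (median 7.23) in Epi and from 14.2 to 62.2 CPM (median 24.5) in Fib. The fractions did not overlap, and Stra6 was 3.54-fold lower in Epi (log2 fold change -1.83 ± 0.11 SE, adjusted p = 8.51e-11, lower in each of 12 pairs of libraries of the same mouse and treatment). Cyp26b1, which clears retinoic acid, ranged from 12.3 to 22.3 CPM (median 17.1) in Epi and from 16.0 to 42.9 CPM (median 26.6) in Fib. Its ranges overlapped, and its log2 fold change was -0.72 ± 0.10 (adjusted p = 3.36e-06). Rarg, the receptor gamma, ranged from 73.5 to 95.8 CPM in Epi and from 98.8 to 129 CPM in Fib, with no overlap (log2 fold change -0.42 ± 0.04, adjusted p = 3.22e-08). Rarb, the receptor beta, went the other way without overlap, with 42.6 to 51.2 CPM in Epi and 27.6 to 39.4 CPM in Fib (0.53 ± 0.04, adjusted p = 4.21e-09). The receptors were thus higher in opposite fractions.

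Rdh10, which makes retinaldehyde, ranged from 163 to 331 CPM (median 219) in Epi and from 81.3 to 172 CPM (median 117) in Fib, with overlap. It was higher in Epi in 12 of 12 pairs, by 0.91 ± 0.08 on the log2 scale (adjusted p = 3.67e-09). Aldh1a3, which makes retinoic acid, had 64.9 to 230 CPM (median 139) in Epi and 11.2 to 73.9 CPM (median 38.0) in Fib. It was also higher in Epi in 12 of 12 pairs (log2 fold change 1.92 ± 0.27, adjusted p = 3.75e-06), beside a log2 fold change of 1.52 ± 0.14 for Epcam. The part of the epithelial RNA of the Fib libraries in the Fib level of Aldh1a3 was not tested. Aldh1a2 was higher in Epi as well (1.47 ± 0.28, adjusted p = 1.31e-04), on few counts. Crabp2, the carrier to the nucleus, and Dhrs3, which reduces retinaldehyde, differed less, with log2 fold changes of 0.46 ± 0.10 (adjusted p = 5.12e-04) and 0.36 ± 0.07 (adjusted p = 1.78e-04). Each was higher in Epi in 11 of 12 pairs.

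**Figure D2:**
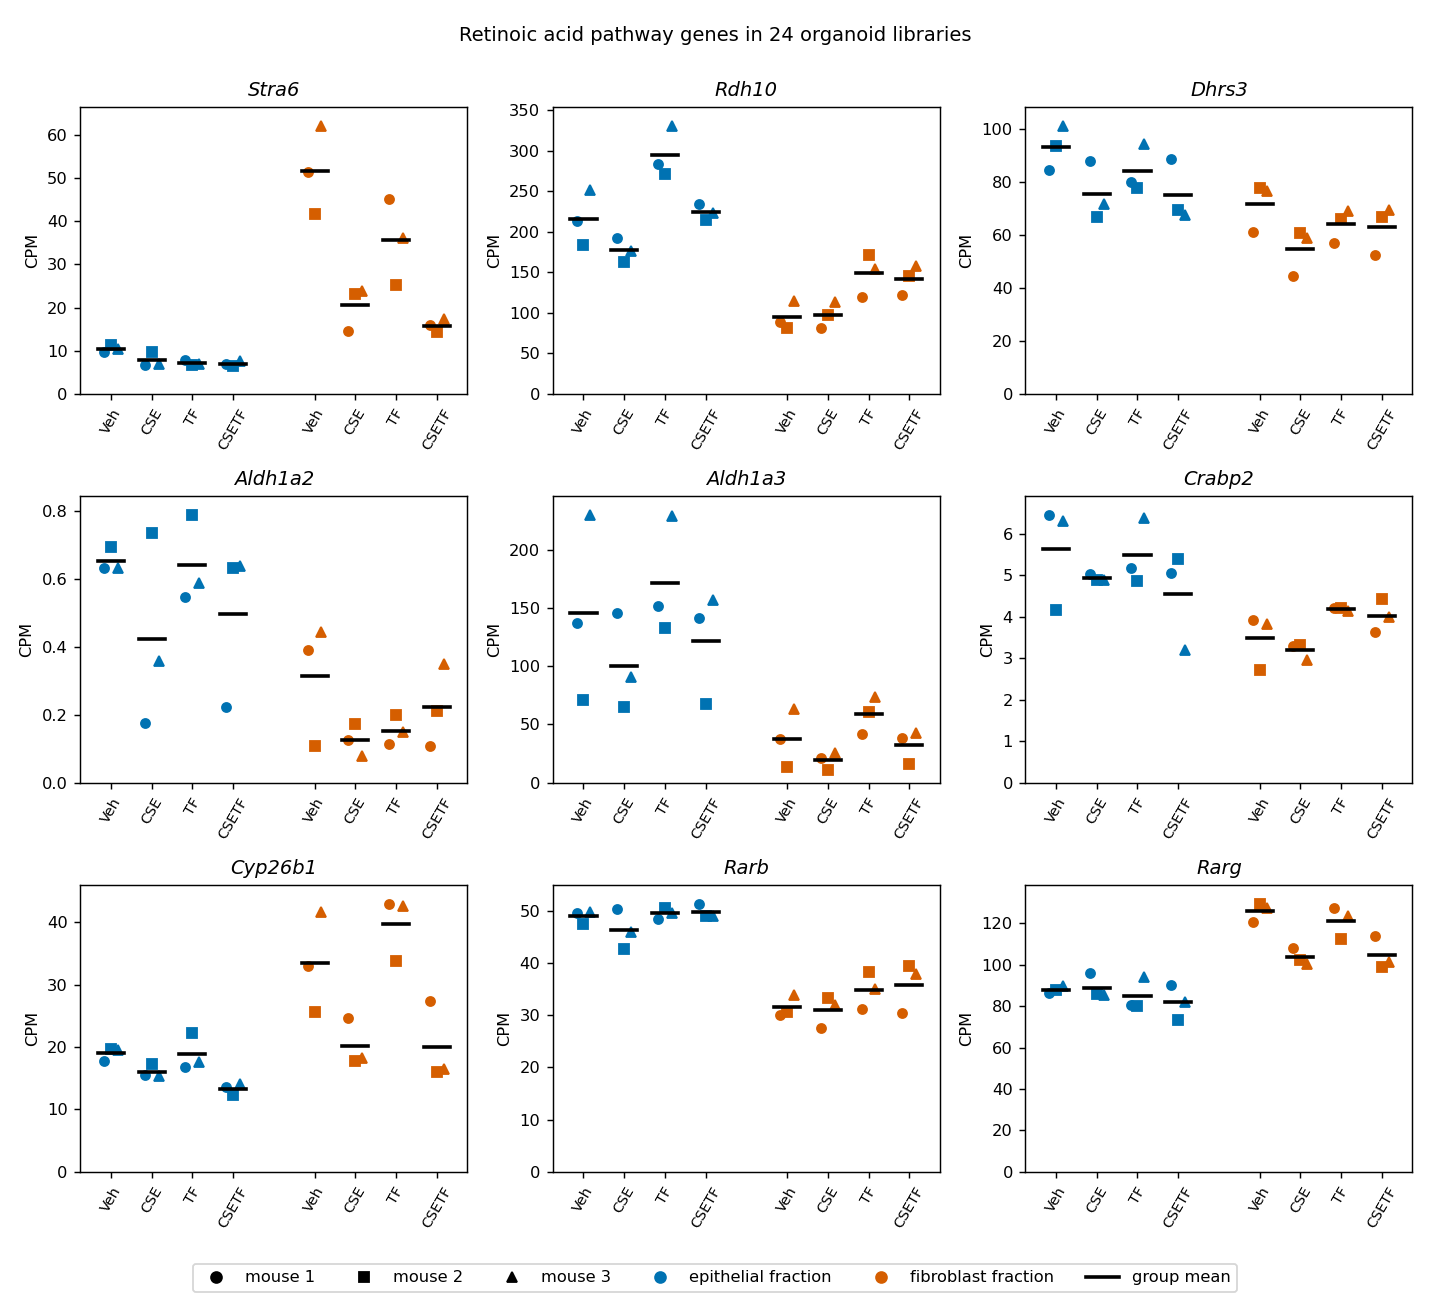
CPM of each gene in all 24 libraries, by treatment (Veh, CSE, TF, CSETF), with the epithelial fraction in blue on the left and the fibroblast fraction in orange on the right; symbols are mice and black bars group means. Stra6, Rarb and Rarg do not overlap between fractions, and Stra6 spans from 6.41 to 62.2 CPM.

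Among the 8 group means, Aldh1a3 spanned 8.80-fold, Stra6 7.50-fold, Aldh1a2 5.15-fold, Rdh10 3.11-fold and Cyp26b1 2.98-fold, and the other 4 members spanned less than 2-fold. Stra6 ran in the order FibVeh, FibTF, FibCSE, FibCSETF, EpiVeh, EpiCSE, EpiTF and EpiCSETF. Of its 7 pairs of neighbours in that order, 5 overlapped, and the steps without overlap lay between FibTF and FibCSE and between FibCSETF and EpiVeh. Cyp26b1 had FibTF and FibVeh on top, then FibCSE, FibCSETF, EpiVeh, EpiTF, EpiCSE and EpiCSETF, with steps below FibVeh and below EpiCSE. Rdh10 ran EpiTF, EpiCSETF, EpiVeh, EpiCSE, FibTF, FibCSETF, FibCSE and FibVeh, with steps below EpiTF and below FibCSETF. Rarb and Rarg each had a single step, between the fractions. For Crabp2, Aldh1a2, Aldh1a3 and Dhrs3, all 7 pairs of neighbours overlapped. The mice differed steadily for Aldh1a3, which was lowest in mouse 2 and highest in mouse 3 in 7 of 8 groups each.

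In the fibroblast fraction of organoids with a history of smoke extract, Stra6, Cyp26b1 and Rarg fell, the RNAs of the retinol transporter, the degrading enzyme and a receptor. Stra6 was 2.36-fold and Cyp26b1 1.79-fold lower averaged over drug treatment, while Rarg was 1.17-fold lower. The other 6 members were not called: none of them rose, and their log2 fold changes were 0.03 for Rarb, -0.00 for Rdh10, -0.07 for Crabp2, -0.19 for Dhrs3, -0.34 for Aldh1a2 and -0.89 for Aldh1a3. The 3 of 9 members called, all lower, stood against 4.01% of all genes tested called and 2.18% called lower. The median log2 fold change of the 9 members was -0.23, beside 0.02 over all genes tested.

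Stra6 had 51.5, 41.7 and 62.2 CPM in FibVeh (mice 1, 2 and 3) and 14.6, 23.1 and 23.7 CPM in FibCSE. With drugs, it had 45.3, 25.3 and 36.3 CPM in FibTF and 15.9, 14.2 and 17.3 CPM in FibCSETF. All 6 libraries after CSE lay below all 6 without it. The log2 fold change averaged over drugs was -1.24 ± 0.17 (adjusted p = 0.0066, lower in 6 of 6 pairs), and -1.22 (adjusted p = 0.0112) in a fit that also held the epithelial identity of each library. Leaving out mouse 3 left the value at -1.25 and ended the call (adjusted p = 0.384), and in the other 14 of 15 fits with a library or mouse left out the call held.

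Cyp26b1 had 33.0, 25.7 and 41.7 CPM in FibVeh and 24.6, 17.7 and 18.2 CPM in FibCSE. It had 42.9, 33.8 and 42.7 CPM in FibTF and 27.4, 16.0 and 16.5 CPM in FibCSETF. It was lower after CSE in every mouse, and the ranges overlapped only through mouse 1 of FibCSETF and mouse 2 of FibVeh. The log2 fold change was -0.84 ± 0.17 (adjusted p = 0.0261), and -0.77 (adjusted p = 0.0194) with the epithelial identity in the fit. The call was lost in 10 of 15 fits, with adjusted p between 0.0593 and 0.562: without mouse 2 or mouse 3, without any library of mouse 3, and without FibVeh 1, FibTF 1, FibCSE 2 or FibCSETF 2. Its log2 fold change ranged from -1.05 to -0.62 over the 15.

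Rarg had 120, 129 and 128 CPM in FibVeh and 108, 102 and 100.4 CPM in FibCSE. It had 127, 113 and 124 CPM in FibTF and 114, 98.8 and 101 CPM in FibCSETF. Without drugs the groups did not overlap, and with drugs mouse 1 of FibCSETF lay just above mouse 2 of FibTF. The log2 fold change was -0.23 ± 0.05 (adjusted p = 0.0423), and -0.19 (adjusted p = 0.0267) with the epithelial identity in the fit. This call was near the threshold: it was lost with no filter on low counts (adjusted p = 0.0575) and in 11 of 15 fits (adjusted p up to 0.615). Those fits left out mouse 2, mouse 3, any library of mouse 3, FibVeh 1, FibTF 1, FibVeh 2, FibCSE 2 or FibCSETF 2.

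**Figure D3:**
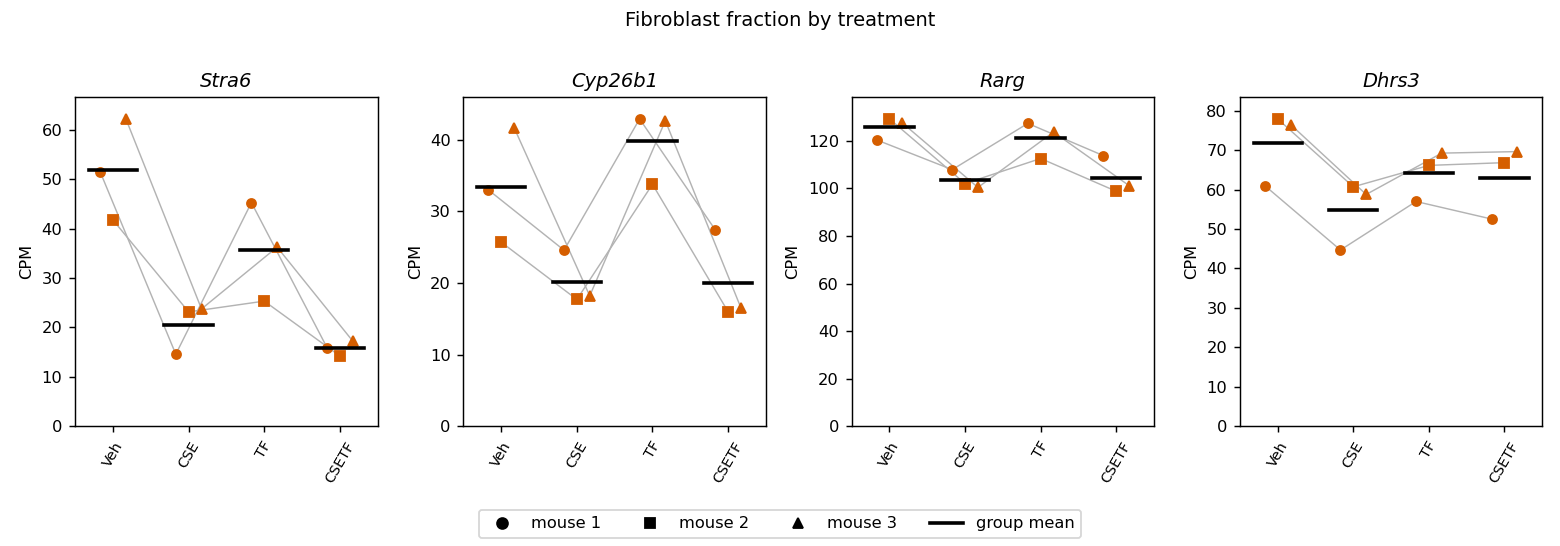
CPM of Stra6, Cyp26b1, Rarg and Dhrs3 in the fibroblast fraction by treatment; symbols are mice joined by grey lines, and black bars are group means. For Stra6 the libraries after CSE reach at most 23.7 CPM and those without it start at 25.3 CPM.

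Once mouse was a term, 4 of 9 members were called lower after CSE in this fraction, against 8.69% of all genes called and 3.89% called lower. The additional gene was Dhrs3, with 61.0, 77.9 and 76.5 CPM in FibVeh, 44.7, 60.7 and 58.7 in FibCSE, 57.0, 66.1 and 69.2 in FibTF and 52.5, 66.8 and 69.6 CPM in FibCSETF. Its groups separated without drugs and overlapped with them (log2 fold change averaged over drugs -0.19 ± 0.10, adjusted p = 0.307, and 0.0227 with mouse as a term). Aldh1a3 had 37.2, 13.3 and 62.9 CPM in FibVeh and 21.6, 11.2 and 25.6 CPM in FibCSE, and was lower after CSE in 6 of 6 pairs without a call (log2 fold change -0.89 ± 0.38, adjusted p = 0.208). For Epcam the same contrast gave -0.29 ± 0.19 (adjusted p = 0.427). The fibroblast identity sum was 1947 to 2348 CPM in FibVeh, 1797 to 5307 in FibCSE, 1331 to 2067 in FibTF and 1129 to 2789 CPM in FibCSETF. By the group medians, marker sums of alveolar type 2, club, basal and ciliated cells were higher after CSE in both drug arms. Alveolar type 1, mesothelial and leukocyte medians were lower after CSE without drugs (811 to 771, 2115 to 1638 and 38.1 to 35.4 CPM). Under drugs these medians were higher after CSE (993 to 1480, 2394 to 2776 and 46.0 to 49.9 CPM). The endothelial sums, at most 2.71 CPM, moved in opposite directions in the 2 arms. The 6 alveolar type 2 genes summed to 288 to 410 CPM in FibVeh, 542 to 1761 in FibCSE, 276 to 561 in FibTF and 866 to 2150 CPM in FibCSETF. The 4 club cell genes summed to 274 to 901 CPM in FibVeh, 738 to 2148 in FibCSE, 258 to 789 in FibTF and 913 to 2414 CPM in FibCSETF. The alveolar type 2 sums did not overlap between cultures with and without CSE within either drug arm. The part of any of these cell types, fibroblasts included, in the results after CSE was not tested.

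Split by drug treatment, the falls of Stra6, Cyp26b1 and Rarg after CSE were close in size but rested on 3 against 3 libraries. Without drugs, the log2 fold change was -1.32 ± 0.24 for Stra6 (adjusted p = 0.0709), Cyp26b1 had -0.71 ± 0.24 (0.251) and Rarg -0.26 ± 0.08 (0.182), and 0 of 9 members were called against 0.104% of all genes. In the fit with a mouse term, Stra6 (adjusted p = 0.0434) and Dhrs3 (-0.37 ± 0.14 without that term, adjusted p = 0.0288 with it) were called, against 0.678% of all genes. Under drugs, Stra6 had -1.16 ± 0.24 (adjusted p = 0.147), Cyp26b1 -0.98 ± 0.24 (0.181) and Rarg -0.20 ± 0.08 (0.35), and 0 members and 0% of all genes were called. With mouse as a term, Cyp26b1 was called (adjusted p = 0.0497) and Stra6 was not (0.0576), against 0.602% of all genes. Dhrs3 was not alike in the 2 arms: it averaged 71.8 CPM in FibVeh and 54.7 in FibCSE, but 64.1 in FibTF and 63.0 CPM in FibCSETF. With the epithelial identity in the fit, Stra6 without drugs was called (adjusted p = 0.0461). Leaving out FibTF replicate 2, which shares the spread of the fit, brought Stra6 without drugs to an adjusted p of 0.0455. At an unadjusted p under 0.05 the counts of members were 4 without drugs and 3 under drugs, beside 2425 and 2155 of 18287 genes tested. Without a mouse term, the interaction of CSE and drugs was called for 0 of 9 members and 0% of all genes. No member reached an unadjusted p under 0.05 in it, nor a call in DESeq2. With mouse as a term, 1 of 9 members had an unadjusted p under 0.05 in the interaction, beside 497 of 18287 genes, and 0 members were called.

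The epithelial fraction held the cells that had themselves met the smoke extract. There, the same comparison gave a median log2 fold change of -0.24 over the 9 members, beside 0.003 over all genes tested. In the fibroblast fraction the median was -0.23, but single members were less alike. Rdh10 had -0.34 in Epi and -0.00 in Fib, Rarg -0.02 and -0.23, and Stra6 -0.24 and -1.24, while Dhrs3 had -0.23 and -0.19. Stra6 had 9.57, 11.3 and 10.4 CPM in EpiVeh, 6.55, 9.73 and 6.89 in EpiCSE, 7.81, 6.65 and 6.95 in EpiTF and 6.78, 6.41 and 7.52 CPM in EpiCSETF. The groups after CSE and without it overlapped (log2 fold change -0.24 ± 0.12, adjusted p = 0.623). Cyp26b1 had 17.8, 19.6 and 19.6 CPM in EpiVeh, 15.5, 17.3 and 15.4 in EpiCSE, 16.9, 22.3 and 17.5 in EpiTF and 13.6, 12.3 and 14.1 CPM in EpiCSETF. It was lower after CSE in 6 of 6 pairs, without overlap within either drug arm, and was not called (-0.37 ± 0.08, adjusted p = 0.201, 0.0619 with mouse as a term, 0.0114 in DESeq2). For Rarg the value was -0.02 ± 0.06. In all, 0 of 9 members were called, against 0.00554% of all genes. At an unadjusted p under 0.05 there were 3 members (Rdh10, Dhrs3 and Cyp26b1), beside 1512 of 18038 genes. DESeq2 called 2 members, beside 91 genes up and 86 down of 21437.

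Rdh10 was the member called after CSE in the epithelial fraction once mouse was a term. It had 214, 184 and 251 CPM in EpiVeh and 192, 163 and 177 CPM in EpiCSE, and 284, 271 and 331 CPM in EpiTF and 235, 214 and 223 CPM in EpiCSETF. It was lower after CSE in 6 of 6 pairs, with overlap without drugs and none with them. The log2 fold change was -0.34 ± 0.08 (adjusted p = 0.264, and 0.0391 with mouse as a term, where 1.00% of all genes were called). With the fibroblast identity in the fit as well as mouse, it was -0.26 (adjusted p = 0.0609). Epcam was also lower after CSE in 6 of 6 pairs (-0.34 ± 0.17, adjusted p = 0.651).

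Whether the effect of CSE differed between the fractions was tested over all 24 libraries. The largest difference among members was that of Stra6, whose log2 fold change was less negative in Epi by 1.00 ± 0.21 (adjusted p = 0.271, 0.131 with mouse as a term, 0.00596 in DESeq2). Differences for Cyp26b1 (0.47 ± 0.20), Rarg (0.21 ± 0.08) and Rdh10 (-0.34 ± 0.15) also had an unadjusted p under 0.05, as did 1652 of 19142 genes tested. After adjustment, 0 of 9 members and 0% of all genes were called. The fall of Stra6 is therefore not shown to differ between fractions in the edgeR fit.

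With the drug pair, Rdh10 was higher in both fractions, with a call once mouse was a term. In the fibroblast fraction Rdh10 had 88.9, 81.3 and 115 CPM in FibVeh and 81.6, 96.9 and 113 CPM in FibCSE. It had 120, 172 and 155 CPM in FibTF and 122, 145 and 158 CPM in FibCSETF. All 6 libraries with drugs lay above all 6 without, with a log2 fold change of 0.60 ± 0.12. It was not called without a mouse term (adjusted p = 0.104) and was called higher with it (adjusted p = 0.0154). In the epithelial fraction it was higher with drugs in 6 of 6 pairs, without overlap within either CSE arm (0.39 ± 0.08, adjusted p = 0.34, and 0.0361 with mouse as a term). DESeq2 without a mouse term called it in both (adjusted p = 0.00112 in Fib and 0.013 in Epi).

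Epcam and the epithelial identity sum were also higher with drugs in the fibroblast fraction, by group means and medians, without a call for Epcam. Epcam averaged 419 (SD 130, n = 3) and 308 CPM (SD 73.4, n = 3) in FibVeh and FibCSE and 546 (SD 136, n = 3) and 488 CPM (SD 114, n = 3) in FibTF and FibCSETF, and was higher with drugs in 6 of 6 pairs (0.52 ± 0.19, adjusted p = 0.24). The epithelial identity sum was 3970 to 5283 CPM in FibVeh, 3656 to 5033 in FibCSE, 4493 to 7276 in FibTF and 4787 to 7548 CPM in FibCSETF. With the epithelial identity in the fit, the log2 fold change of Rdh10 was 0.29 (adjusted p = 0.545), or 0.33 with mouse as a further term, without a call. Over all genes that fit called 0 up and 1 down, beside 11 and 9 without the covariate. With mouse it called 0 and 0, beside 293 and 171. The identity was itself higher with drugs, so these fits cannot tell it from the drugs. The part of epithelial RNA in the values of Rdh10 was not tested. In the epithelial fraction, with the fibroblast identity in the fit, the log2 fold change of Rdh10 was 0.30 (adjusted p = 0.0807). With mouse as a further term it was 0.31 (adjusted p = 0.0725), also without a call.

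**Figure D4:**
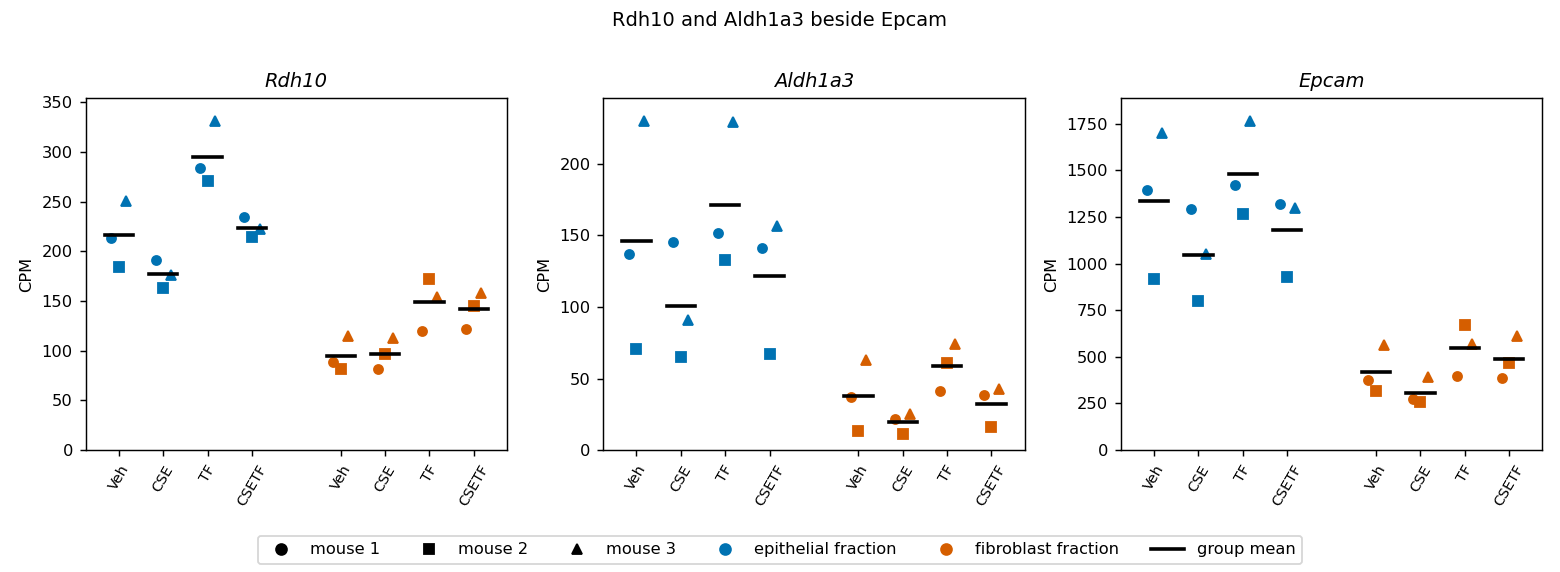
CPM of Rdh10, Aldh1a3 and Epcam in all libraries by treatment, with the epithelial fraction in blue on the left and the fibroblast fraction in orange on the right; symbols are mice and black bars group means. In the fibroblast fraction Rdh10 with drugs starts at 120 CPM, above the highest library without drugs (115 CPM), and the mean of Epcam is also higher with drugs.

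The other members were not called for drugs. In the fibroblast fraction Crabp2 (0.30 ± 0.13, adjusted p = 0.3), Rarb (0.18 ± 0.08, 0.34) and Aldh1a3 (0.69 ± 0.38, 0.423) were higher with drugs in 6 of 6 pairs. With the epithelial identity in the fit the values were 0.28 for Crabp2, -0.02 for Rarb and 0.51 for Aldh1a3. Crabp2 had 3.91, 2.72 and 3.82 CPM in FibVeh and 4.22, 4.21 and 4.15 CPM in FibTF, then 3.30, 3.32 and 2.96 in FibCSE and 3.63, 4.43 and 4.0 CPM in FibCSETF, without overlap within either CSE arm. Stra6 had values below 0 in both fractions, -0.46 ± 0.17 in Fib (adjusted p = 0.241) and -0.36 ± 0.12 in Epi (adjusted p = 0.718). Cyp26b1, Rarg and Dhrs3 had log2 fold changes between -0.14 and 0.12 in the 2 fractions. Averaged over CSE, 0 of 9 members were called in either fraction without a mouse term, against 0.109% of all genes in Fib and 0.00554% in Epi. An unadjusted p under 0.05 was reached by 3 members in Fib and 2 in Epi, beside 2726 of 18287 and 1138 of 18038 genes. With mouse as a term 1 of 9 was called in each, Rdh10, against 2.54% in Fib and 0.205% in Epi.

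**Figure D5:**
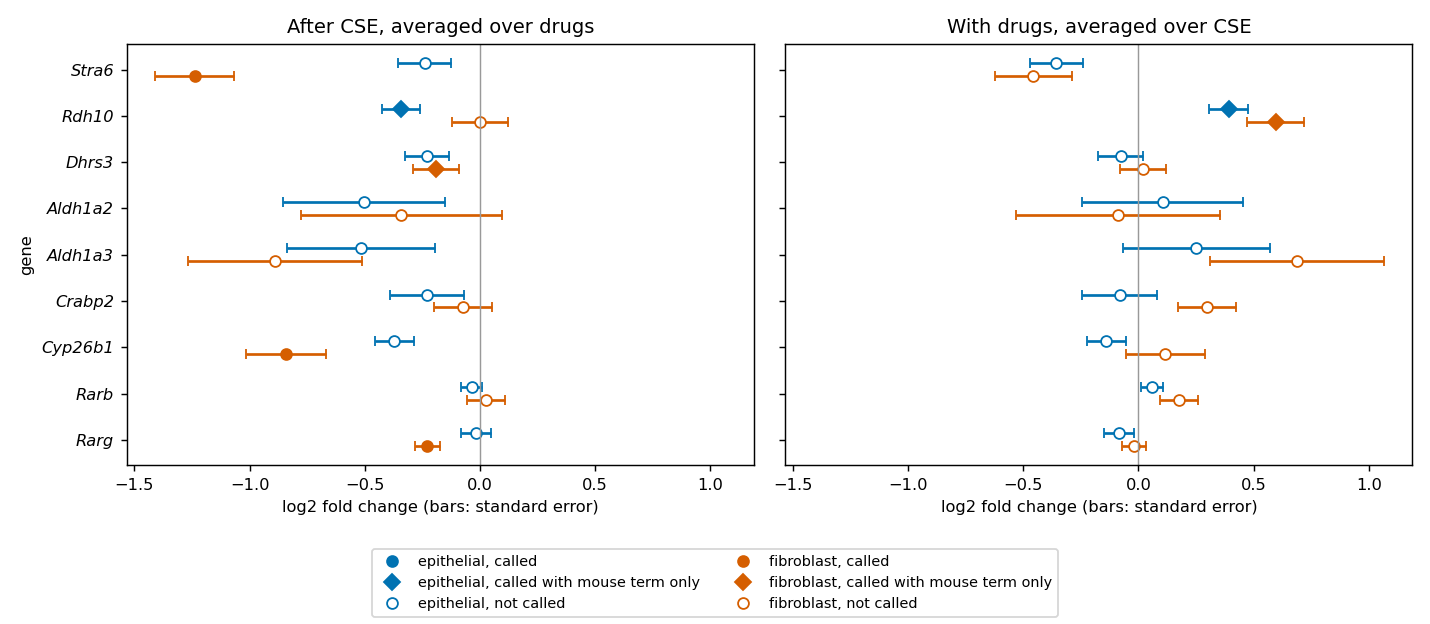
Log2 fold change with its standard error for each gene after CSE (left) and with drugs (right), in the epithelial (blue) and fibroblast (orange) fraction. Filled circles are called, diamonds are called only with mouse as a term, and open circles are not called; Stra6 after CSE in the fibroblast fraction is the farthest from 0, at -1.24.

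In the single drug contrasts no member was called by edgeR, with or without a mouse term, or by DESeq2. Without CSE, 0.00547% of all genes were called in Fib and 0% in Epi. There, 2 members (Stra6 and Rdh10) had an unadjusted p under 0.05 in each, beside 1152 of 18287 genes in Fib and 473 of 18038 in Epi. After CSE, 0.0109% were called in Fib and 0% in Epi. Rdh10 (0.54 ± 0.17 in Fib, 0.34 ± 0.12 in Epi) had an unadjusted p under 0.05 in both, as did 1908 and 754 genes. In Epi, Cyp26b1 did as well (-0.27 ± 0.12), so the counts of members were 1 in Fib and 2 in Epi. The single CSE contrasts of the epithelial fraction and its interaction also had 0% of all genes and 0 members called in edgeR, while DESeq2 called Cyp26b1 under drugs (-0.50 ± 0.12, adjusted p = 0.0433). The drug effect was called as different between the fractions for 0 of 9 members and 0% of all genes, with Rdh10 at -0.21 ± 0.15 in Epi minus Fib.

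Other genes of the pathway came from a list of 40, of which all were in the table and 32 passed the filter over all libraries. Of 30 listed pathway genes tested in the fibroblast fraction, 3 rose and 2 fell after CSE, against 4.01% of all genes called. Their median log2 fold change was 0.09, beside 0.02 over all genes. Scarb1, a lipoprotein receptor that also takes up carotenoids, fell by 0.25 ± 0.04 (adjusted p = 0.0164). Ncoa1, a coactivator of nuclear receptors, rose by 0.37 ± 0.07 (adjusted p = 0.0236). Rbp4, the retinol carrier of blood plasma, rose by 1.47 ± 0.32 (adjusted p = 0.0337), from 2.38, 3.98 and 1.45 CPM in FibVeh to 4.74, 7.11 and 9.52 CPM in FibCSE. Aldh1a7, a relative of the retinaldehyde dehydrogenases, rose by 1.57 ± 0.36 (adjusted p = 0.0428) and was named after its values were seen. Aldh1a1, another enzyme that makes retinoic acid, was higher after CSE in 6 of 6 pairs without a call (1.08 ± 0.34, adjusted p = 0.108, 0.0357 with mouse as a term), and so was Adh7, a retinol dehydrogenase (1.34 ± 0.52, adjusted p = 0.172, 0.0074 with mouse as a term). In the fit with a mouse term 5 rose and 2 fell, against 8.69% of all genes called. The alveolar type 2 and club cell sums given above were also higher after CSE in the medians of both drug arms, and their part in the rises of Rbp4 and Aldh1a7 and in the values of Aldh1a1 and Adh7 was not tested. In the other comparisons within a fraction, 0 of the pathway list were called for CSE or drugs averaged over the other factor, with or without mouse as a term. At most 2.54% of all genes were called in these.

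Between the fractions, 9 of 32 listed genes were higher and 11 lower in Epi, a smaller share than the 68.9% of all genes called, with a median log2 fold change of -0.03 beside 0.03 over all genes. Among those called were Scarb1 (-0.41 ± 0.04, adjusted p = 1.05e-08) and Dhrs4, a retinal reductase (0.53 ± 0.06, adjusted p = 1.22e-07). Aldh1a1 was higher in Epi in 12 of 12 pairs (0.90 ± 0.25, adjusted p = 0.00389) and was highest in mouse 2 in 8 of 8 groups. Fabp5, a fatty acid-binding protein that also carries retinoic acid, was higher (0.27 ± 0.09, adjusted p = 0.0111), as was the partner receptor Rxra (0.18 ± 0.08, adjusted p = 0.0497). The receptor Rara (-0.12 ± 0.06, adjusted p = 0.104), Rbp4 (0.47 ± 0.24, 0.0916) and Adh7 (0.81 ± 0.40, 0.0752) were not called. Among genes that did not pass the filter, Cyp26a1 reached at most 0.223 CPM, Lrat, which esterifies retinol, 0.131 CPM and Crabp1 0.392 CPM in any library, so Cyp26b1 was the degrading enzyme with RNA well above 0.

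Of 25 genes known to respond to retinoic acid in other systems, 22 were tested between fractions, where 6 were higher and 14 lower in Epi, beside 34.7% higher and 34.2% lower of all genes. Their median log2 fold change was -0.96, beside 0.03 over all genes. Those with the smallest p were Egr1, an early response factor (-1.22 ± 0.06, adjusted p = 3.8e-11), and the Hox genes Hoxa5 (-2.01 ± 0.12, adjusted p = 1.45e-10) and Hoxa4 (-1.72 ± 0.11, adjusted p = 2.41e-10), which pattern the body axis. After CSE in the fibroblast fraction, 1 of 21 was called, near the 4.01% of all genes called. It was the repressor Zfp503, which rose by 0.34 ± 0.05 (adjusted p = 0.0075), with a list median of -0.12 beside 0.02 over all genes. A mouse term made that 2 that rose and 2 that fell, against 8.69% of all genes called. These were Hoxb3 (0.45 ± 0.15 without that term, adjusted p = 0.037 with it), Hoxa5 (-0.35 ± 0.10, 0.0434 with it) and Rai14 (-0.22 ± 0.07, 0.0486 with it) beside Zfp503. With drugs in the fibroblast fraction Egr1 fell by 0.73 ± 0.06 (adjusted p = 7.65e-04), and with mouse as a term Foxa1, an epithelial factor, was called as well (0.37 ± 0.11 without that term, adjusted p = 0.037 with it). Of all genes, 0.109% were called without the mouse term and 2.54% with it. With the epithelial identity in the fit, Foxa1 had 0.07 (adjusted p = 0.818) and Egr1 -0.66 (adjusted p = 0.0298). With mouse as a further term beside the identity, 0 of 18287 genes were called, so Egr1 was not called either. In the epithelial fraction 0 of 22 were called for CSE or drugs averaged over the other factor, against 0.00554% of all genes in each.

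The genes most like each variable member over the 8 group means were found as the smallest root mean square difference of centred log2 CPM among 14733 genes. For Stra6 they were Fbln2 (0.209), a matrix glycoprotein, and Nes (0.212), an intermediate filament. For Cyp26b1 they were Myo7b (0.139) and Pycr1 (0.157), an enzyme of proline synthesis. For Rdh10 they were Kcnk6 (0.0735), a potassium channel, and Lmo7 (0.0757). For Aldh1a3 they were Wnt7a (0.153), a Wnt ligand, and Myl7 (0.172), a myosin light chain, and for Aldh1a2 Il22ra1 (0.0752), a cytokine receptor chain, and Tnfaip8l1 (0.0794). These differences are descriptions of 8 means that share libraries.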

How the data were processed

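Poly-A RNA was sequenced on an Illumina NovaSeq, per the labels' protocols. Trimming used Trimmomatic 0.30, and the authors' own tests DESeq2, per the submitters' processing notes. Aligner, counter and strand setting were not given in the sources used here; because of that, overlapping or antisense genes may share reads. The labels call the reference mouse but give it a human assembly name, so the files' build is not settled. The deposited values were raw counts of reads per gene, which the authors had not normalised. Features without a symbol held 0.574 to 1.06% of a library's counts and stayed in the tests. No 2 replicates held identical values (24 pairs).

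The test was that of edgeR 4.0.16 under R 4.3.3 (TMM scaling, filter on low counts by group, robust quasi-likelihood F test). Adjustment was by Benjamini and Hochberg over all genes tested, and an adjusted p under 0.05 is a call. Within a fraction, 4 group means were fitted over its 12 libraries, and fractions were compared over 24, in 17 comparisons in all. CPM used TMM-scaled library sizes over all libraries, and exon lengths came from GENCODE M21, matched by identifier. The procedure was tested on simulated counts drawn independently for each library, so that test did not cover libraries that share a mouse. The labels give the mouse as the batch, so same-numbered libraries share an animal. The deviations of such libraries from their group means had correlations of -0.00884 to 0.454 in Epi (median 0.196) and -0.00924 to 0.502 in Fib (median 0.126). Fits with mouse as a term stand beside a result where they change it. P-values of the main fits measure the spread between the 3 libraries of a group, each from another mouse and its culture. Those fits took libraries of the same mouse in different groups as independent. The 12 libraries of a fraction came from 3 mice over 4 treatments. P-values between fractions, and SDs with n = 12, therefore do not measure the spread between 12 animals. Alternatives were DESeq2 1.42.0, its size factors, no filter, the mouse term, the identity of the other fraction as a covariate (mean log2 CPM of its identity genes, prior count 2) and leaving out each mouse or library.

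Members, lists and tests were chosen with earlier results of these data known. Named are all 9 members, per comparison and list the 3 called genes with the smallest p, and a fixed set (Rara, Rxra, Aldh1a1, Cyp26a1, Rbp4, Adh7, Lrat, Crabp1, Fabp5), of which 1 further gene is not reported here. Likeness used log2(CPM + 0.5) for members spanning over 2-fold.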

Additional observations from a re-analysis of the deposited data

How the results depend on the processing

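No called member changed direction under any alternative. The count of members called between the fractions stayed at 9 with DESeq2, its size factors, no filter, the replicate block and each mouse or library left out, and the covariate was not run for it. With mouse as a replicate block, the count of 0 became 1 for drugs in each fraction and for CSE in the epithelial fraction (Rdh10), 2 for CSE without drugs (Stra6 and Dhrs3) and 1 for CSE under drugs (Cyp26b1) in the fibroblast fraction, and it changed no count elsewhere by more than 1.5 times. DESeq2 called more genes than edgeR without a mouse term in each comparison where it added a member. It called 1 member for drugs in each fraction. Over all genes it called 37 up and 22 down of 16099 in Epi and 380 and 293 of 15871 in Fib. It called 2 for CSE in the epithelial fraction (91 genes up and 86 down of 21437) and 1 for CSE under drugs there (25 and 30 of 16099). In the fibroblast fraction it called 1 for CSE without drugs (244 genes up and 287 down of 16507) and 2 under drugs (149 and 207 of 16507). It called 1 (Stra6) for the difference of the CSE effect between fractions (67 and 12 of 18642). With the epithelial identity as a covariate, CSE without drugs had 1 call, beside 87 genes up and 127 down of 18287. With the replicate block as well it had 2, beside 179 and 190. Leaving out a mouse or a library gave 0 to 3 members called after CSE in the fibroblast fraction and 0 to 1 for CSE without drugs. The cause of these changes was not tested. Over single genes, 22 of 781 values with a mouse or library left out lost a call, but most of the 781 had no call to lose. All 22 were of the 3 genes called after CSE in the fibroblast fraction. Stra6 lost the call in 1, Cyp26b1 in 10 and Rarg in 11 of 15 fits each. Values without a call changed sign in 32 of the 781, as did 6 of 36 with the covariate and 5 of 36 with the covariate and the replicate block. DESeq2's size factors changed no call. Depth limited Aldh1a2, with 3 to 29 counts a library, which the filter dropped in some fits with libraries left out.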
